A study of Mus musculus with 15 samples.

Results

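The genes of the insulin-like growth factors, their receptors and their binding proteins were followed in mouse ventricles in which the RNA-binding protein Celf1 was switched on in heart muscle cells. The 9 genes are the rows with the symbols Igf1, Igf2, Igf1r, Igf2r, Igfbp3, Igfbp4, Igfbp5, Igfbp6 and Igfbp7, out of 16042 genes in the deposited table. They were chosen by name. All 9 had a mean of at least 1 RPKM (reads per kilobase of gene model per M mapped reads) over the 15 mice, the filter that left 10868 genes for testing.

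Induced mice (strain MHCrtTA/TRECUGBP1) carried a tetracycline-responsive activator, rtTA, under the alpha myosin heavy chain promoter, which is active in heart muscle cells, and a Flag-tagged human Celf1 (LYLQ isoform) that the activator turns on when doxycycline is eaten. They are labelled 12 hours, 24 hours, 72 hours and 7 days on doxycycline food. Control mice (strain MHCrtTA) had the activator without the Celf1 cassette and ate the same food for 72 hours, so that only the 72 hour mice match them in time on the drug. Every group had 3 mice of 20 to 22 weeks, all given 2 g/kg doxycycline after 2 to 3 hours without food. Polyadenylated RNA of 1 ventricle sample per mouse was sequenced, with the atria and part of the apex cut away and the blood washed out.

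Insulin-like growth factors are secreted proteins that act on growth, survival and metabolism. Igf1 and Igf2 both bind the receptor tyrosine kinase Igf1r, which signals through insulin receptor substrates to PI3 kinase and Akt, while Igf2r has no kinase and carries Igf2 into the cell for breakdown. The secreted binding proteins hold the ligands away from the receptor, carry them or release them at the cell surface. In the adult heart Igf1 made by the liver arrives with the blood, and cells of the heart make some of their own. Ventricle RNA reports only the local messages.

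The Celf1 row, listed in the table under its older symbol Cugbp1, checks the labels. It had 305 ± 74.2, 378 ± 71.6 and 173 ± 12.1 RPKM in the mice labelled 12, 24 and 72 hours, against 34.4 RPKM in control mice. The mice labelled 7 days had 29.5, 30.9 and 37.9 RPKM, to either side of the 33.3, 33.8 and 36.1 RPKM of the control mice. The Celf1 level thus went with the label at 12, 24 and 72 hours (log2 differences from control of 3.08, 3.40 and 2.29), but not in the libraries labelled 7 days (-0.07, limma adjusted p = 0.771), and every direction given below for 7 days rests on that label.

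Facts of the libraries bear on all that follows. The 20 columns of the table carry 9 codes of unstated meaning. The 3 control mice share their code with 1 mouse labelled 72 hours (A3278) and with no other. In most comparisons with control the code and the group thus cannot be told apart. A fit with the column code as a term ties the control mice to the other codes through A3278 alone. Each difference from control given below with that term, whether it passed or not, rests on that mouse. A3278 had the highest value of the 3 mice labelled 72 hours in 9 of the 9 genes. Its whole library was also shifted upwards, with a log2 scale of 0.277, against -0.031 for A3281 and -0.039 for A3264. The share of all genes in which A3278 was the highest of these mice was not counted, so the count says nothing particular about this family. Columns under 2 codes exist for 5 mice, and in the most different pair of values (A3283, labelled 7 days) Igf2 was 3.86 and 1.41 RPKM. At 12 hours the median log2 difference of all genes tested was -0.30, at 24 hours -0.19, at 72 hours -0.10 and at 7 days -0.03, so small decreases at 12 hours sit close to a shift of the whole table.

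Celf1 binds RNA with GU-rich stretches, many of them in 3′ untranslated regions, and is known to speed the decay of some of the messages that hold them. The sites below show which of the 9 genes hold such letters. They were read from the transcript sequences of GENCODE vM1, in the longest annotated 3′ untranslated region of each gene, on the transcript strand only. Positions are on the build that the submitters' notes name (NCBIM37, mm9). The capitals mark the run of TG-based repeat (T stands for U), in windows of 30 bases. A run longer than its window goes on past the last base.
Igfbp5 chr1:72904902-72904931, minus strand: gttttctttTGTTTGTTTGTTTGTttttta
Igf1 chr10:87397546-87397575, plus strand: gtaagtacgTGTGTGTGTGTGTGTGTGTGT
Igfbp3 chr11:7107386-7107415, minus strand: tatattttaTGTGTGTGTGTGTGTgagtgt
Igfbp4 first site chr11:98913011-98913040, plus strand: atttcccttTGTGTGTGTGTgcacacgcgt
Igfbp4 second site chr11:98913043-98913072, plus strand: acatgctcgTGTGTGTGTGTttataggatg

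Igfbp5 was the only one of the 9 genes with the letters TGTTTGTTTGT, in a run of 15 bases that starts at base 4029 of 4445 of its 3′ untranslated region. These letters occur in 359 of 9608 genes (3.74%), and in 12.6% of the genes whose region has at least 3000 bases. Igf1, Igfbp3 and Igfbp4 held TGTGTGTGTGT, which 676 of 9608 genes hold (7.04%). The Igf1 run was 35 bases long, at base 4110 of a region of 6347 bases, and 20.9% of genes with a region of at least 3000 bases hold TGTGTGTGTGT. The share with a run as long as that of Igf1 was not counted. Igf2, Igf1r, Igf2r, Igfbp6 and Igfbp7 held neither in the annotated window, which is only 197 bases long for Igf1r, 209 for Igfbp6 and 240 for Igfbp7. A match is a description of the letters, and binding was not measured here.

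Igfbp7 had the highest mean RPKM of the 9 genes in each of the 5 groups, while the order of the others differed between groups. Mean levels over the 15 mice, which RPKM scales by gene length, were 138 for Igfbp7, 43.3 for Igfbp4, 25.0 for Igf2r, 14.4 for Igfbp5, 10.2 for Igfbp6, 9.54 for Igfbp3, 9.11 for Igf1, 6.37 for Igf2 and 5.76 for Igf1r. The lowest mean was that of Igf2 in the mice labelled 7 days (2.54 RPKM) and that of Igf1 in control mice (5.21 RPKM). In the mice labelled 7 days Igf1 (22.4 RPKM) stood above Igfbp3, Igfbp6 and Igfbp5 (15.4, 12.2 and 8.19 RPKM), whereas in control mice each of the 5 binding proteins had a higher mean than either ligand. The classical blood carrier partner Igfals averaged 0.127 RPKM in mice labelled 7 days and 0.82 RPKM in control mice, and Igfbp2 averaged 0.0283 and 0.0167 RPKM, all below the filter. Igfbp1 was not analysed here.

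**Figure D1:**
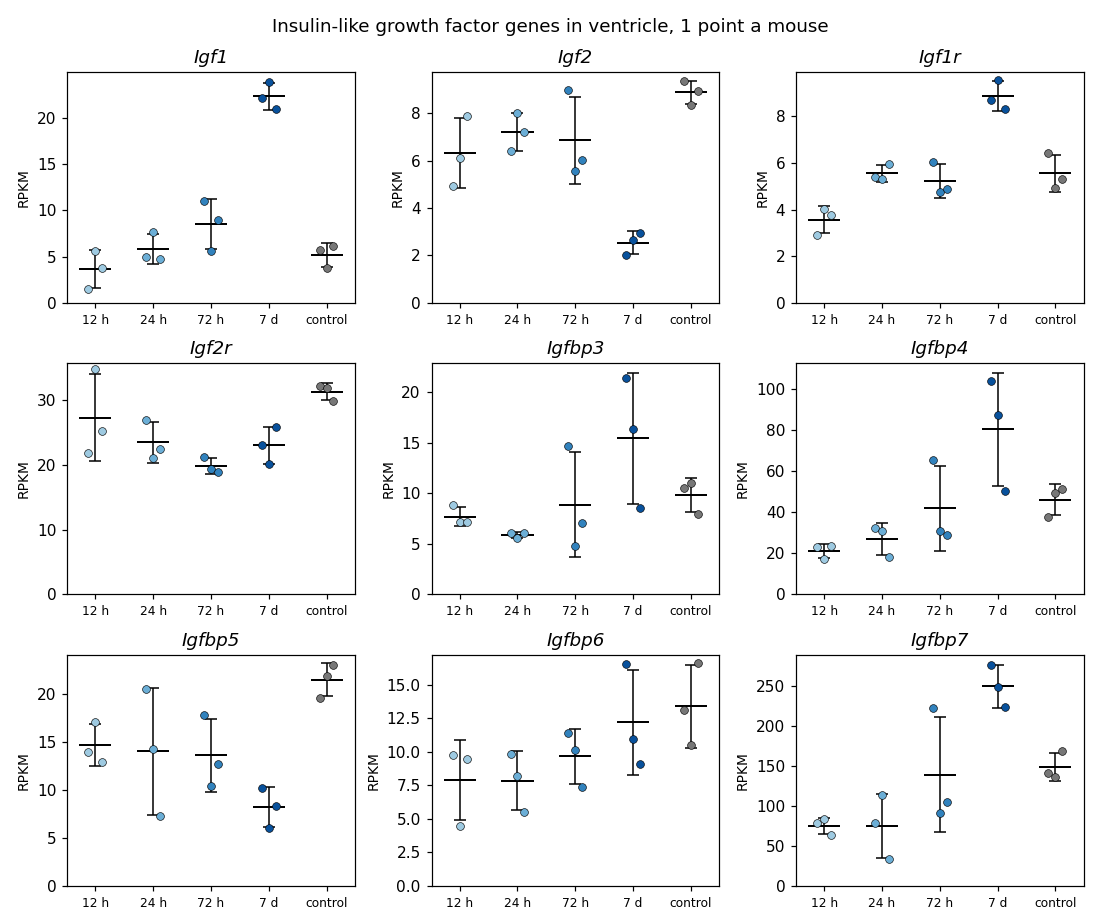
RPKM of the 9 genes (vertical axes, from 0) in ventricles of mice labelled 12, 24 and 72 hours and 7 days after induction and of control mice (horizontal axes). Each point is 1 mouse, the line is the mean and the bar the SD of 3 mice; Igf1 stands at 20.9 to 23.9 RPKM in mice labelled 7 days, above all other mice, and Igf2 at 2.04 to 2.96 RPKM, below all other mice.

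The mice labelled 7 days differed from control mice in both ligands, and in opposite directions. Igf1 was higher and Igf2 was lower, so that Igf1, with fewer reads per kilobase than Igf2 in control ventricles, had more in those labelled 7 days. Of the receptors Igf1r was higher and Igf2r lower, and of the binding proteins Igfbp5 was lower. In all, 2 of the 9 genes were higher and 3 lower (limma on log2(RPKM + 1), adjusted p under 0.05 over all 10868 genes). Of all genes tested 54.8% passed the same test, 26.7% higher and 28.2% lower, so that the count of 5 of 9 is near the background and says nothing particular about this family.

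Igf1 lies on chromosome 10 (87321010 to 87399792, plus strand, mm9) and encodes the ligand that acts mainly through Igf1r. It had 22.2, 23.9 and 20.9 RPKM in the mice labelled 7 days, against 5.73, 3.72 and 6.19 RPKM in control mice. The groups did not overlap, and the lowest value at 7 days was more than every value at the other times. The fitted log2 difference was 1.93 ± 0.30 (SE, adjusted p = 4.22e-05), a ratio of mean RPKM of 4.29. At the earlier times Igf1 had 1.54, 5.63 and 3.79 RPKM at 12 hours, 4.95, 7.68 and 4.78 RPKM at 24 hours and 11.0, 5.62 and 9.01 RPKM at 72 hours. These all overlapped the control values, with log2 differences of -0.50, 0.13 and 0.60 that did not pass (adjusted p = 0.238, 0.777 and 0.196).

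The Igf1 difference at 7 days was smaller after a correction for GC content. The longest Igf1 transcript has 38.1% GC, against a median of 50.6% over the tested genes, and it is the member with the lowest GC content. After each library was corrected for GC the log2 difference was 1.03 (adjusted p = 0.0436), and with the column code as a term it was 2.49 (adjusted p = 0.00287).

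Igf2 (chromosome 7, 149836673 to 149852721, minus strand) encodes the growth factor of the fetus, which is expressed from the paternal allele and falls after birth in rodents. It had 2.04, 2.64 and 2.96 RPKM in the mice labelled 7 days, against 9.36, 8.37 and 8.94 RPKM in control mice. All 3 values lay below those of every other mouse in the study. The log2 difference was -1.49 ± 0.20 (adjusted p = 7.97e-06), a ratio of mean RPKM of 0.29. With the column code as a term it was -0.65 and no longer passed (adjusted p = 0.144). At 12 and 24 hours the 3 values, 4.95, 6.12 and 7.91 RPKM and 6.41, 8.01 and 7.22 RPKM, were also all below the control values. Those differences did not pass (-0.45 and -0.27, adjusted p = 0.116 and 0.325), and at 72 hours the values of 8.98, 5.58 and 6.05 RPKM overlapped those of control mice (-0.35, adjusted p = 0.245). Exons of Igf2 overlap the antisense gene Igf2as, and with no strand stated in the sources used here, reads in the shared bases cannot be told apart.

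The ratio of Igf1 to Igf2 within a mouse puts both ligands on 1 scale that does not depend on library size. It was 10.9, 9.06 and 7.07 in the mice labelled 7 days, against 0.612, 0.444 and 0.692 in control mice. In the mice labelled 72 hours it was 1.23, 1.01 and 1.49, which is also above every control value and below every value at 7 days. The geometric means were 15.5-fold higher at 7 days and 2.14-fold higher at 72 hours than in control mice. No test is given, since the pair was chosen with the values known. The 12 and 24 hour mice, at 0.570 ± 0.314 and 0.797 ± 0.150, overlapped the control mice (0.583 ± 0.127; SD, n = 3 each). On the log2(RPKM + 1) scale the 7 day difference in the ratio was 3.42, and it was 2.22 after GC correction and 3.14 with the column code as a term.

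**Figure D2:**
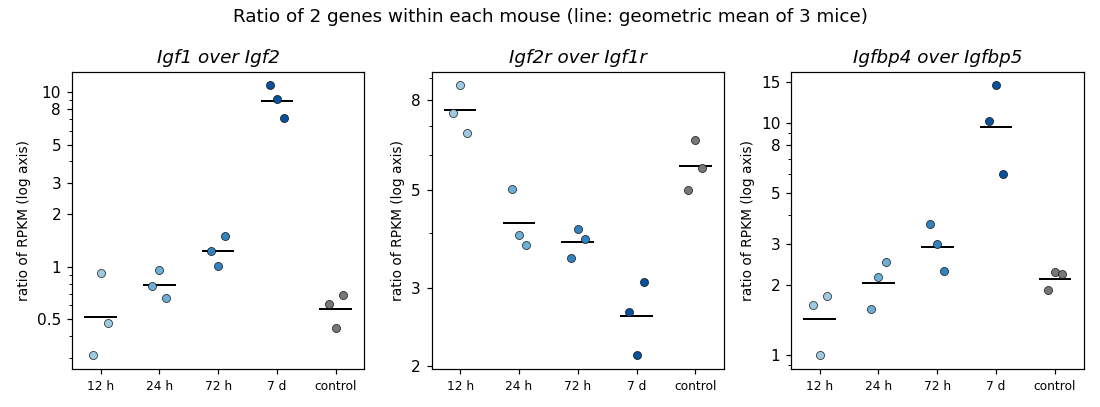
Ratio of the RPKM of 2 genes within each mouse (vertical log axes) for Igf1 over Igf2, Igf2r over Igf1r and Igfbp4 over Igfbp5, by group (horizontal axes). Points are mice and lines geometric means of 3 mice; in mice labelled 7 days the first and last ratios stand above, and the middle one below, all control values.

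Against control the receptor genes also differed in opposite directions at 7 days, Igf2r only narrowly. Igf1r (chromosome 7, 75097713 to 75371484, plus strand), the signalling receptor, had 8.73, 9.58 and 8.32 RPKM in the mice labelled 7 days, against 6.45, 4.91 and 5.32 RPKM in control mice. The groups did not overlap, and the log2 difference was 0.59 ± 0.16 (adjusted p = 0.00563). It was 1.05 with the column code as a term (adjusted p = 0.0205) and 0.40 when the second column of each mouse with 2 was used (adjusted p = 0.0839).

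At 12 hours Igf1r was lower, at 2.92, 4.04 and 3.75 RPKM against the same control values, without overlap (-0.52 ± 0.16, adjusted p = 0.0455). That call was lost in 8 of 12 other settings, including both scalings (-0.23 and adjusted p = 0.393 by median ratios) and the column code (-0.02, adjusted p = 0.999), and on leaving out 10 of the 15 mice, 1 at a time, the 3 control mice among them (adjusted p up to 0.141). At 24 and 72 hours Igf1r averaged 5.56 ± 0.35 and 5.22 ± 0.72 RPKM, against 5.56 ± 0.80 RPKM in control mice (SD, n = 3 each), and neither passed (adjusted p = 0.982 and 0.794).

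Igf2r (chromosome 17, 12875272 to 12962530, minus strand), the receptor that clears Igf2 and also sorts lysosomal enzymes, was lower at 72 hours. It had 21.3, 19.4 and 18.9 RPKM in the mice labelled 72 hours, against 32.2, 31.9 and 29.9 RPKM in control mice. All 3 were below the control values, A3278 with the controls' own code included, and the log2 difference was -0.63 ± 0.18 (adjusted p = 0.0288; with the column code -0.54, adjusted p = 0.221). The 72 hour call was lost without A3281, A3264 or each of the control mice (adjusted p up to 0.106). In the mice labelled 7 days it had 23.1, 20.2 and 25.8 RPKM, again without overlap, and the difference of -0.43 ± 0.18 passed narrowly (adjusted p = 0.0476). The 7 day call was lost in 6 of 12 other settings and on leaving out 9 of the 15 mice, 1 at a time, the 3 control mice among them (adjusted p up to 0.159). At 24 hours, with 27.0, 21.1 and 22.4 RPKM, it lay below the control mice without passing (-0.41, adjusted p = 0.113), and at 12 hours the values of 21.9, 34.9 and 25.3 RPKM overlapped theirs (-0.22, adjusted p = 0.389). Igf2r exceeded Igf1r 2.62 ± 0.499-fold in RPKM within the mice labelled 7 days and 5.71 ± 0.758-fold within control mice (SD, n = 3 each), without overlap. This ratio was above all control values at 12 hours (7.62 ± 0.962), overlapped them at 24 hours (4.24 ± 0.682) and was below them at 72 hours (3.83 ± 0.294).

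**Figure D3:**
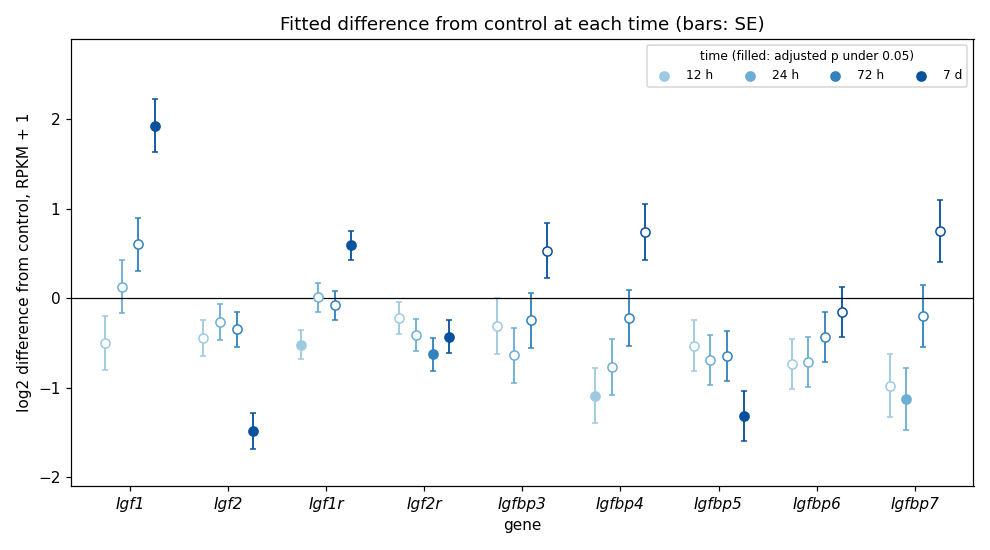
Fitted log2 difference from control of each of the 9 genes (vertical axis, on the log2(RPKM + 1) scale) at 12, 24 and 72 hours and 7 days. Bars are SE and filled points passed an adjusted p of 0.05; at 7 days Igf1 (1.93) and Igf1r (0.59) are filled above the line, and Igf2 (-1.49), Igfbp5 (-1.32) and Igf2r (-0.43) below it.

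Among the binding proteins, Igfbp5 was lower at 7 days and the other 4 did not pass. Igfbp5 (chromosome 1, 72904506 to 72921458, minus strand), a high-affinity binding protein that also attaches to extracellular matrix, had 10.2, 6.06 and 8.29 RPKM in the mice labelled 7 days, against 19.6, 21.9 and 23.0 RPKM in control mice. The groups were well apart, and the log2 difference was -1.32 ± 0.28 (adjusted p = 0.000841). With the column code as a term it was -0.79 (adjusted p = 0.201). Igfbp5 was already below control without overlap at 12 hours (14.0, 17.1 and 13.0 RPKM) and at 72 hours (17.8, 10.4 and 12.7 RPKM), but neither passed (-0.53 and -0.65, adjusted p = 0.189 and 0.137). At 24 hours its values of 20.5, 14.3 and 7.27 RPKM overlapped the control values (-0.69, adjusted p = 0.0943).

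Igfbp7 (chromosome 5, 77778265 to 77837070, minus strand), a low-affinity member of the wider family that vessel cells secrete, had 277, 249 and 224 RPKM in the mice labelled 7 days, against 141, 136 and 168 RPKM in control mice. The groups did not overlap, yet the log2 difference of 0.75 missed the threshold (adjusted p = 0.0803). It passed in 6 of 12 other settings, among them both scalings (0.82, adjusted p = 0.0263 by median ratios) and GC correction (1.16, adjusted p = 0.003). The column code (1.96, adjusted p = 0.000115) was also among them, and that value rests on A3278. That mouse had 223 RPKM, against 90.7 and 105 RPKM in the other mice labelled 72 hours. At 24 hours Igfbp7 was lower, with 78.5, 114 and 33.8 RPKM and no overlap (-1.13 ± 0.35, adjusted p = 0.0398). This call was lost in 5 of 11 other settings, among them GC correction (-0.79, adjusted p = 0.0909) and median ratios with GC correction (-0.58, adjusted p = 0.12). Without the lowest of those mice, A3262, the 24 hour difference was -0.64, and the call was lost, as it was without the 12 hour mouse A3258 or each of the control mice (adjusted p up to 0.212). At 12 hours the values of 78.2, 83.7 and 63.3 RPKM were below control without passing. Igfbp7 exons overlap those of Polr2b and AC141469.5 on the other strand. With no strand stated, reads in the shared bases cannot be told apart.

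Igfbp4 (chromosome 11, 98902558 to 98913969, plus strand), which holds ligand until the protease Pappa cuts it, had a course much like that of Igfbp7. It had 104, 87.5 and 50.1 RPKM in the mice labelled 7 days, against 37.6, 49.6 and 51.2 RPKM in control mice. The lowest of the 7 day mice lay within the control range, and the log2 difference of 0.74 did not pass (adjusted p = 0.0523). It passed in 7 of 12 other settings, with 0.81 by median ratios (adjusted p = 0.0142) and 1.95 with the column code (adjusted p = 0.00167). At 12 hours Igfbp4 was lower, with 22.9, 17.1 and 23.4 RPKM (-1.09 ± 0.31, adjusted p = 0.0333). That call did not pass by median ratios (-0.74, adjusted p = 0.123) and turned round with the column code (0.14, adjusted p = 0.999). It was lost without each of the 12 hour mice in turn and without the control mice A3259 or A3280 (adjusted p up to 0.126). The values at 24 hours, 32.4, 31.0 and 18.2 RPKM, lay below control without passing (-0.77, adjusted p = 0.089), and at 72 hours those of 65.5, 31.0 and 29.0 RPKM spread to both sides of the control values, with A3278 the highest.

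Igfbp3 and Igfbp6 passed at no time against control. Igfbp3 (chromosome 11, 7106089 to 7113926, minus strand), the main carrier of the ligands in blood, had 21.4, 16.4 and 8.50 RPKM in the mice labelled 7 days, against 10.5, 11.0 and 7.92 RPKM in control mice, with overlap (0.53, adjusted p = 0.163). It was 1.91 with the column code as a term (adjusted p = 0.0046), and 0.88 without the 7 day mouse A3269 (adjusted p = 0.0229). At 24 hours its 3 values, 5.54 to 6.06 RPKM, were all below the control values without passing (-0.64, adjusted p = 0.15). Igfbp6 (chromosome 15, 101974793 to 101979942, plus strand), which prefers Igf2, had 16.6, 10.9 and 9.05 RPKM in the mice labelled 7 days, against 13.1, 10.5 and 16.6 RPKM in control mice. Its 7 day difference of -0.15 (adjusted p = 0.689) changed sign with GC correction (0.33) and with the column code (0.30), so that it has no direction.

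The summed RPKM of the 5 binding proteins was 366 ± 64.6 in the mice labelled 7 days and 239 ± 24.2 in control mice (SD, n = 3 each). At 12 and 24 hours it was lower than in every control mouse (116 to 134 and 70.8 to 173 RPKM, against 222 to 267 RPKM in control mice), and at 72 hours it overlapped (147 to 332 RPKM). Igfbp7 made up 68.8 ± 5.17% of the sum in the mice labelled 7 days and 62.0 ± 2.21% in control mice. The part of Igfbp5 was 2.26 ± 0.574% and 9.01 ± 0.477%, with no overlap. Within a mouse Igfbp4 exceeded Igfbp5 10.2 ± 4.21-fold in the mice labelled 7 days and 2.13 ± 0.193-fold in control mice, a 4.52-fold difference of the geometric means. At 12 hours that ratio was below all control values (1.48 ± 0.428), at 24 hours it overlapped them (2.08 ± 0.467) and at 72 hours it was above them (2.98 ± 0.692). No test is given for this ratio or for that of Igf2r to Igf1r. Each pair joins genes whose fitted 7 day differences from control had opposite signs, and the difference in the ratio follows from them.

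Before 7 days few of these genes passed against control. At 12 hours 2 of 9 were lower (Igf1r and Igfbp4), beside 13.2% of all genes tested, of which 12.7% were lower and 0.524% higher. At 24 hours 1 was lower (Igfbp7), beside 16.0% of all genes, 10.6% lower and 5.38% higher. At 72 hours, the time matched to the controls, 1 was lower (Igf2r), beside 11.6% of all genes, 5.22% lower and 6.39% higher. No member was higher at 12, 24 or 72 hours by limma, also at an unadjusted p under 0.05 (0 of 9 each time). At 12 hours 6 of the 9 had all 3 values below control, and at 24 hours again 6, where 43.0% and 32.9% of all genes were below control in this way. The median log2 difference of the 9 genes was -0.52 at 12 hours, -0.64 at 24 hours and -0.25 at 72 hours, below the all-gene medians given above. At 7 days it was 0.53. The comparisons with control share the same 3 control mice.

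Successive times were compared directly. Between 24 and 12 hours, and between 72 and 24 hours, none of the 9 genes passed by limma, beside 3.92% and 10.2% of all genes. At an unadjusted p under 0.05 there was 1 in each, Igf1r at 24 over 12 hours (0.53, unadjusted p = 0.0051, adjusted p = 0.0838) and Igfbp7 at 72 over 24 hours (0.92, unadjusted p = 0.0173, adjusted p = 0.103). Between the mice labelled 7 days and those labelled 72 hours 5 passed, 4 higher and 1 lower, beside 44.9% of all genes, 22.6% higher and 22.3% lower. Igf1 (1.33 ± 0.30, adjusted p = 0.00168), Igf1r (0.67 ± 0.16, adjusted p = 0.0032), Igfbp4 (0.96, adjusted p = 0.0179) and Igfbp7 (0.95, adjusted p = 0.0358) were higher at 7 days, and Igf2 (-1.13 ± 0.20, adjusted p = 0.000175) was lower. Igf1 did not pass in this comparison after GC correction (1.0, adjusted p = 0.0549). The Igfbp4 and Igfbp7 calls were lost on leaving out, 1 at a time, 4 and 5 of the 6 mice compared (adjusted p up to 0.0873 and 0.144). Over all 5 groups the F test passed for 8 of 9 genes, all but Igfbp6 (adjusted p = 0.0829), beside 71.3% of all genes tested.

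The 7 day and 72 hour groups share 3 column codes, so that these groups could also be set side by side within a code. Igf1 had 29.2 RPKM in the 7 day column of the first shared code, against 5.62 and 6.02 RPKM in its 72 hour columns. In the second code it had 18.6 and 20.9 RPKM at 7 days against 12.4 RPKM at 72 hours, and in the third 19.3 against 5.21 RPKM. The 7 day columns were thus above in 3 of 3 codes. Igf2 had 3.86 RPKM against 7.53 and 7.76 RPKM, then 1.41 and 2.96 against 4.34 RPKM, and 2.25 against 3.62 RPKM, below in 3 of 3 codes. Igf1r, Igfbp3, Igfbp4, Igfbp6 and Igfbp7 were also above in 3 of 3 codes. Igfbp5 was below in 3 of 3, while Igf2r was above in 2 and overlapped in 1. Some margins were narrow. In the first code Igfbp6 had 12.7 RPKM at 7 days against up to 12.3 RPKM at 72 hours. In the third Igfbp5 had 8.81 against 9.26 RPKM. Of all genes tested 33.5% were above and 24.0% below in each of the 3 codes, 57.6% together. Some columns of different codes come from the same mouse, so these are not independent replicates.

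**Figure D4:**
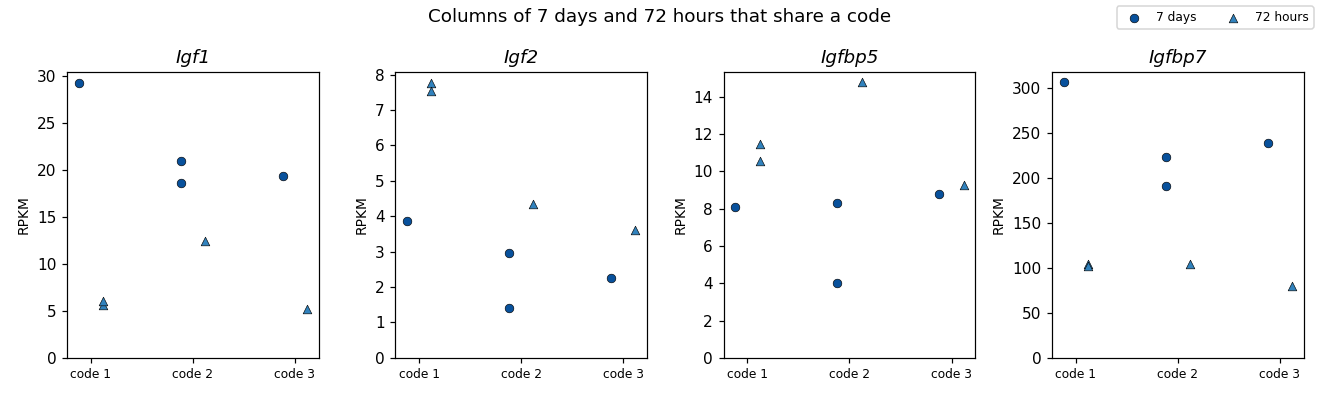
RPKM (vertical axes, from 0) of Igf1, Igf2, Igfbp5 and Igfbp7 in the single columns of the 3 codes that mice labelled 7 days (circles) and 72 hours (triangles) both have (horizontal axes). The circles lie above the triangles in each code for Igf1 and Igfbp7 and below them for Igf2 and Igfbp5.

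The ventricles labelled 7 days also differed in the markers of several cell types. The 10 macrophage markers were all higher (10 of 10, Cd68 80.5 ± 13.1 RPKM at 7 days and 6.48 ± 1.0 RPKM in control mice), with a summed level of 1150 to 1620 RPKM in the mice labelled 7 days and 138 to 173 RPKM in control mice. Of 10 fibroblast markers 7 were higher and 0 lower, with sums of 2220 to 2910 RPKM at 7 days and 570 to 676 RPKM in control mice. Of 10 cardiomyocyte markers 8 were lower and 0 higher, with sums of 12000 to 13400 RPKM at 7 days and 41900 to 44600 RPKM in control mice. They had the highest sum of the 7 lists in control ventricles, which the label gives as ventricle of the heart. Of 10 endothelial markers 5 were lower (740 to 1030 RPKM at 7 days, 902 to 1080 RPKM in control mice), and of 10 mural cell markers 5 were higher and 3 lower (298 to 387 and 286 to 364 RPKM). No marker of these 5 lists was at 0 in both groups. In bulk tissue fewer cells of a type and less RNA per cell cannot be told apart, and the part of these cells in the differences of Igf1, Igf2 and the binding proteins was not tested.

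At 12, 24 and 72 hours the macrophage sums, at 112 to 231 RPKM, overlapped those of control mice. The fibroblast sums overlapped control at 12 and 72 hours (489 to 651 and 552 to 751 RPKM). At 24 hours they lay below every control value (452 to 549 RPKM, against 570 to 676 RPKM). Of the 20 markers 1 passed, a macrophage marker that was higher at 24 hours, when 5.38% of all genes were higher. The cardiomyocyte sums lay below every control value at each of these times, at 30500 to 39500 RPKM at 12 hours, 31300 to 39200 RPKM at 24 hours and 26800 to 36400 RPKM at 72 hours. In turn 1, 1 and 2 of the 10 cardiomyocyte markers were lower, beside 12.7%, 10.6% and 5.22% of all genes. The endothelial sums were below control at 12 hours (725 to 871 RPKM, 2 of 10 lower) and overlapped control at 24 and 72 hours. The part of these sums in the early calls of Igf1r, Igfbp4, Igfbp7 and Igf2r was not tested. Atrial markers, which the dissection should remove, summed to 622 to 1290 RPKM in the mice labelled 7 days and 112 to 127 RPKM in control mice, with 1 of 5 tested higher (Nppa, also a stress gene of the ventricle, 940 and 41.9 RPKM) and 1 lower (Sln). At 24 hours the atrial sums were above every control value (180 to 237 RPKM, 1 of 5 higher). At 12 and 72 hours they overlapped control (125 to 161 and 39.4 to 145 RPKM), with 2 of 5 lower at 72 hours. The 3 tested blood markers were lower at 7 days (sums of 103 to 686 and 1920 to 3220 RPKM). Blood sums were below every control value at 24 hours (1110 to 1540 RPKM) and overlapped control at 12 and 72 hours, with no marker passing. The part of these sums was not tested.

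A list of 54 further genes of the pathway, from binding protein proteases to Akt and FOXO, was described beside the members; 50 were in the table and 41 passed the filter. At 7 days 14 were higher and 14 lower, with a median log2 difference of -0.04 (all genes -0.03). This is 68.3% of the list called, beside 54.8% of all genes. Both Stat5 genes, which carry growth hormone signals to Igf1, were lower. Stat5b had 9.54, 12.0 and 12.6 RPKM in the mice labelled 7 days, against 39.1, 41.6 and 42.9 RPKM in control mice (-1.78 ± 0.16, adjusted p = 1.21e-07), and Stat5a averaged 8.66 and 28.4 RPKM (-1.60, adjusted p = 1.86e-06). The values of neither gene overlapped. Grb14, an adaptor that inhibits insulin receptor signalling, was lower (28.2 ± 0.766 and 73.3 ± 4.20 RPKM, -1.35, adjusted p = 5.57e-07), as was the transcription factor Foxo4 (8.23 and 27.5 RPKM, -1.62, adjusted p = 3.53e-06).

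Members of the insulin receptor branch, named after their values were seen, went opposite ways at 7 days. Insr, the receptor closest to Igf1r, averaged 10.5 RPKM in the mice labelled 7 days and 18.9 RPKM in control mice (-0.78, adjusted p = 0.00192). The receptor substrate Irs1 averaged 1.04 and 4.04 RPKM (-1.30, adjusted p = 6.17e-05) and Irs2 6.48 and 3.36 RPKM (0.79, adjusted p = 0.0207). Akt2 was lower (38.1 and 91.3 RPKM, -1.25, adjusted p = 0.0001), and Akt1 did not pass (67.9 and 80.0 RPKM, adjusted p = 0.36). Igf2bp2, an RNA-binding protein named for its binding to Igf2 messages, was higher (4.48 and 1.49 RPKM, 1.16, adjusted p = 8.22e-05).

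At the earlier times the median of the list was near that of all genes, while the share called was higher. At 12 hours 0 of 41 were higher and 11 lower, 26.8% of the list beside 13.2% of all genes (median -0.37, all genes -0.30), led by Foxo3 with 4.45, 5.50 and 6.30 RPKM against 18.7, 20.7 and 20.9 RPKM in control mice (-1.73 ± 0.21, adjusted p = 0.000221). Stat5b (-1.01), Stat5a (-0.98) and Pik3r2 (-0.85), a regulatory subunit of PI3 kinase, were lower too, with adjusted p = 0.00215, 0.00629 and 0.0123. At 24 hours 5 were higher and 6 lower, again 26.8%, beside 16.0% of all genes (median -0.18, all genes -0.19), and the 4 with the smallest p, Foxo4 (-0.94), Stat5b (-0.69), Tsc2 (-0.72) and Stat5a (-0.71), were all lower. At 72 hours 3 were higher and 3 lower, 14.6% beside 11.6% of all genes (median -0.12, all genes -0.10). The list was chosen with earlier results known, so these shares are a description. Stat5b (-0.73), Grb14 (-0.59) and Stat5a (-0.68) were lower at 72 hours.

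The 9 genes were also compared with each other and with all tested genes over the 15 mice by the Pearson correlation of log2(RPKM + 1). This is a description, since the mice labelled 7 days stand apart for most of these genes and mice of a group share their treatment. Among the members Igfbp4 and Igfbp7 were most alike (r = 0.91), then Igf1 and Igf1r (r = 0.90), and Igf1 and Igf2 ran most against each other (r = -0.65). Outside the 9 genes the closest to Igf1 were Mtmr12 (0.956) and Slc16a3 (0.944), to Igf2 Plxnb1 (0.948) and Pex10 (0.946), and to Igf1r Tmem2 (0.950) and Hivep1 (0.947). Igfbp7 was closest to Gpx1 (0.985) and Zyx (0.965), Igfbp4 to Des (0.970) and Mpg (0.969), and Igfbp5 to Il10rb (0.960) and Lmo6 (0.944). Igfbp3 was closest to D17Wsu104e (0.921) and Rpl27a (0.911). The closest genes to Igf2r (4930402H24Rik, 0.840, and Mitf, 0.836) and Igfbp6 (Wnt11, 0.870, and 2610027C15Rik, 0.865) were less alike.

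**Figure D5:**
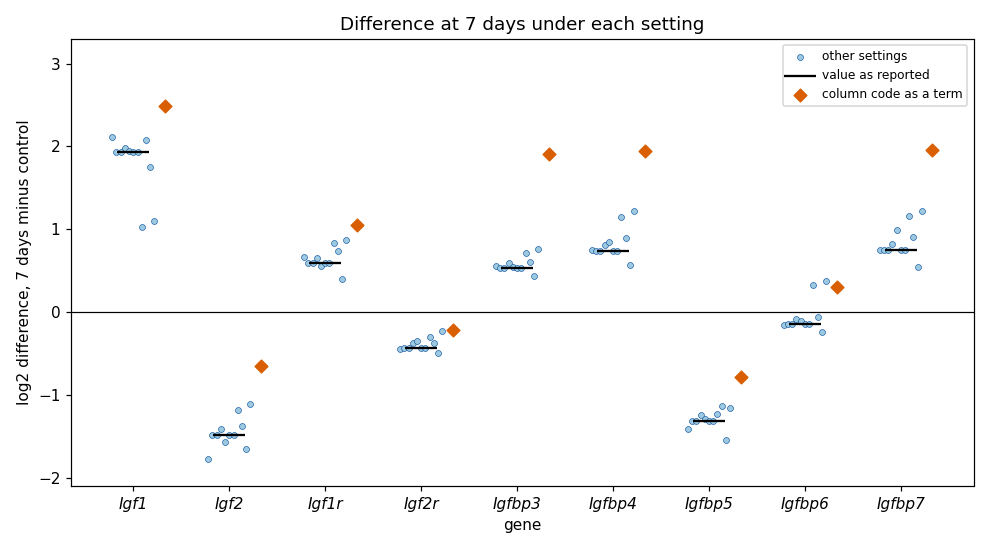
Log2 difference between mice labelled 7 days and control mice (vertical axis) for the 9 genes (horizontal axis), as reported (line), with the column code as a term (diamond) and under the 11 other settings (small points). All points of Igf1 and Igf1r lie above 0 and all of Igf2, Igf2r and Igfbp5 below it, where the Igf2 diamond stands at -0.65, while the points of Igfbp6 lie on both sides.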

How the data were processed

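Polyadenylated RNA of ventricles from 15 mice, 3 in each of 5 groups, was sequenced in read pairs, per the labels' protocols. The authors deposited 1 table of RPKM with 16042 genes and 20 columns. The submitters' processing notes name TopHat, Bowtie and mm9. Their versions, the tool that counted reads and the strand are not given in the sources used for this work. The 2 columns of 5 mice were averaged. Groups and mouse numbers come from the labels, and no number pairs mice across groups. Whether mice of a group were littermates is not given.

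Depth was estimated from the steps between values of 96 olfactory receptor genes with 1 exon, at 16.4 to 52.0 M reads per column (median 26.7). On simulated columns 60 of 60 estimates lay within 5%. Those columns were made with the gene lengths that the estimate assumes. They thus cannot show whether the deposited values used the same lengths. The least read-rich values, near 1 RPKM in short genes, carry the largest counting error.

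Values were put on the log2(RPKM + 1) scale, which understates the change of low genes. One limma fit (3.58.1 in R 4.3.3; lmFit, contrasts and eBayes with trend) held all 15 mice and 10868 genes with a mean of at least 1 RPKM. Benjamini-Hochberg adjustment ran within each of 7 comparisons and an F test, with a threshold of 0.05, and the fit was tested on simulated data. Further settings were a pseudocount of 0.1, no filter, a mean of at least 5, median ratio and quantile scaling, robust eBayes, the 2 compared groups alone, a lowess GC correction (span 0.3, 10823 genes with GC), only the first column of a mouse, a fit with a term for the column code and the mouse as a random effect (16 columns, without 24 hours, mouse correlation 0.283) and leaving out each mouse. The second column of each mouse, median ratios with GC correction and the comparison within shared codes were added once the values were known, and so were chosen after seeing the data.

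The 9 genes, the pathway list and the marker lists were chosen with earlier results of these data known. Most genes were named by rule: the 9 members, Celf1 and for each member the 2 most alike genes. Up to 4 pathway genes per time were named too, with the smallest adjusted p under 0.05 and no overlap with control. Insr, Irs1, Irs2, Akt1 and Akt2 were named outside this rule, after their values were seen. Igf2bp2, Igfals, Igfbp2, Cd68, Nppa and Sln were also named outside it. Some genes of these lists are not reported here. Igfbp1, Rptor, Sgk1, H19, Hba-a1 and Hbb-b2 of these lists were not analysed here. No protein sequences were used here.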

Additional observations from a re-analysis of the deposited data

Results flagged for a closer look

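By the direct limma contrast 5 of the 9 genes differed between the mice labelled 7 days and those labelled 72 hours. Of all genes tested 44.9% passed the same contrast, 22.6% higher and 22.3% lower, so the count says nothing particular about this family. The log2 difference between 7 days and 72 hours was 1.33 for Igf1, 0.67 for Igf1r, 0.96 for Igfbp4 and 0.95 for Igfbp7, each higher at 7 days, and -1.13 for Igf2, lower at 7 days. For Igf1 the values at 7 days (20.9 to 23.9 RPKM) lay above those at 72 hours (5.62 to 11.0 RPKM) in 3 of 3 mice. For Igfbp4 (50.1 to 104 and 29.0 to 65.5 RPKM) the groups overlapped through mouse A3278, and without that mouse its difference was 1.33 (adjusted p = 0.00142). For Igfbp7 (224 to 277 and 90.7 to 223 RPKM) the groups did not overlap, and without A3278 its difference was 1.34 (adjusted p = 0.00394). The Igfbp7 call was lost without any 1 of the other 5 mice compared (adjusted p up to 0.144), and the Igfbp4 call without A3281, A3264, A3345 or A3283 (adjusted p up to 0.0873). The Igf1 call was lost with GC correction (1.0, adjusted p = 0.0549). The marker sums of macrophages (1150 to 1620 RPKM at 7 days and 142 to 231 RPKM at 72 hours) and fibroblasts (2220 to 2910 and 552 to 751 RPKM) moved in the same comparison, and their part in these differences was not tested.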

How the results depend on the processing

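At 7 days versus control 5 of the 9 genes passed, and 4 to 7 passed under the 12 other settings and 4 to 7 on leaving out each mouse in turn. Igf1 passed in 12 of these 12 settings (1.03 to 2.49), and Igf2, Igf1r and Igfbp5 in 11 each. At 12 hours, where 2 passed, 0 did with no filter, with median ratio scaling, quantile normalization, the first column of each mouse, median ratios with GC correction or the column code with mouse block, 1 with GC correction or the second column, and 4 with the 2 compared groups alone. At 24 hours, where 1 passed, 0 did with no filter, GC correction, the second column or median ratios with GC correction, and 2 with the 2 groups alone. At 72 hours, where 1 passed, 0 did with the first column, median ratios with GC correction or the column code. Between 24 and 12 hours 1 passed with GC correction, against 0. Leaving out each mouse in turn gave 0 to 3 at 12 hours, 0 to 2 at 24 hours and at 72 hours, 0 to 1 between 72 and 24 hours and 3 to 6 between 7 days and 72 hours. The reversed values were Igfbp4 at 12 hours with the column code (0.14) and Igfbp6 at 7 days with GC correction (0.33), median ratios with GC correction (0.38), the column code (0.30) and on leaving out mice (-0.37 to 0.03). The cause was not tested. Over all genes, calls ranged from 9 to 3244 at 12 hours, 39 to 2582 at 24 hours, 376 to 2490 at 72 hours and 3171 to 6780 at 7 days, against 1432, 1736, 1262 and 5960, and for the pathway list from 0 to 17, 0 to 16, 1 to 15 and 15 to 33, against 11, 11, 6 and 28.

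Groups of 3 mice limit what can pass, the meaning of the column codes is not given, and the control mice have a code shared with 1 induced mouse, so that their code and group are separated in the fit by that mouse alone. No paired analysis was possible because no mouse number is shared between groups.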
